A study of Macaca mulatta and Mus musculus and Rattus norvegicus with 12 samples.

Results

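The 9 genes described here, PPBP, PF4, ITGA2B, ITGB3, GP1BA, GP1BB, GP6, GP9 and TUBB1, are expressed by megakaryocytes and their products are carried by platelets. They were chosen by a readout of these same data: PPBP stood among the genes of smallest p-value in the macaque site difference, and the other 8 were added as genes of the same cells. A member was every row whose gene symbol, in upper case, was one of the 9, out of 75861 symbols over the 3 species. Mouse had rows for 9 of 9, rat for 9 of 9 (GP1BB without a read in either library) and macaque for 6 of 9, since no macaque row under GP1BA, GP1BB or GP6 was used here. Because the macaque contrast took part in the choice, macaque values of these genes are given as a description and without a p-value.

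RNA-seq of poly(A)+ RNA from osteocyte-enriched bone compared the calvaria, or skull vault, with the tibia, or shin bone, in mouse, rat and rhesus macaque, to find genes that differ between the 2 sites. Mouse libraries came from mice of 4 months, described as C57BL6 females, each pooled from 3 animals. M4 and M8 were from calvaria and M5 and M7 from tibia. Rat libraries came from Wistar females of 6 months, each pooled from 2 animals, with R1 from calvaria and R3 from tibia, so rat values have no replicates. Macaque libraries G1, G3 and T1 came from calvaria and G2, G4 and T2 from tibia of females, each from 1 animal, aged 4–6 months by the labels and the same numbers in years by the study's methods. No animal was treated. All bones were scraped free of periosteum and dipped in collagenase. Rodent calvariae were cut so as to leave out sutures and marrow spaces, and marrow was spun out of rodent tibias. Preparation and site therefore cannot be told apart in rodents. Macaque bone was cut with a hacksaw under saline, and no step to remove marrow is described for it. In macaque, marrow left in a bone therefore cannot be told apart from its site. Nothing in these steps removes every marrow cell, and the tissue is bone, not sorted osteocytes. Tibia and skull were described as paired, but the pairs are not named, and p-values measure only the spread between these few libraries.

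Megakaryocytes are large cells of the bone marrow that shed platelets into the blood. They fill α-granules with the chemokines PPBP and PF4, and place on the platelet surface the receptors that stop bleeding: the integrin αIIbβ3 (ITGA2B and ITGB3) binds fibrinogen, the GPIb-IX-V complex (GP1BA, GP1BB, GP9 and GP5) binds von Willebrand factor, and GP6 binds collagen. TUBB1 is the β-tubulin of the ring of microtubules that gives a platelet its shape. In bulk RNA, fewer cells of a type and less RNA per cell cannot be told apart.

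The reads on genes numbered 13934813 to 16826535 per library in mouse, 14255423 (R1) and 12233256 (R3) in rat and 7951585 to 10342459 in macaque. The mouse library labelled M8 stood apart from the other 3. XIST, the RNA of the inactive X chromosome, had 2 reads in M8 against 11106, 15771 and 12083 in M4, M5 and M7, whereas the Y-linked DDX3Y had 1049 reads in M8 and 0 in each of the others, which goes against a description of all mice as female. The platelet gene MMRN1 had 737 reads in M8 and 0 in each of the others. A2M went the other way, with 474, 722 and 379 reads in M4, M5 and M7 and 0 in M8. Whether M8 came from another strain was not tested. In all, 19 symbols had at least 60 reads in M8 and at most 3 in every other mouse library, 19 had the opposite pattern, and no symbol had either pattern for M4, M5 or M7. Mouse results for the 9 genes, and for the other genes and lists named, are therefore given with and without M8. Without it calvaria has 1 library, whose spread is assumed to be that of the tibias. That fit is therefore given as effect sizes with this assumed error, without p-values, and no call from it is read as a result. Genes of the osteocyte list (9 genes, among them SOST, DMP1 and PHEX) were read in every library, with a summed level in mouse of 2127 CPM in M4 and 1243 CPM in M8 against 7967 and 10817 CPM in the tibias. In rat, with 7 of the 9 read, it was 564 CPM in calvaria and 7545 CPM in tibia. In macaque, with 6 of 9 rows and none under SOST used here, it was 5070 to 5916 CPM in calvaria and 7667 to 17119 CPM in tibia, most of it MEPE (5084 and 13432 CPM on average).

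PPBP (pro-platelet basic protein) and PF4 (platelet factor 4) are CXC chemokines, named for a pair of cysteines with 1 residue between them. In mouse their genes lie side by side on chromosome 5 (GRCm38, GENCODE vM21), both on the plus strand, with Ppbp at chr5:90768518-90770063 and Pf4 at chr5:90772435-90773383. The coding stretches around that motif are shown because the 2 genes are neighbours and relatives, and a read that could come from either would blur their values. They cover bases 127 to 189 of the coding sequence of transcript Ppbp-201 and bases 103 to 165 of Pf4-201, both exonic, and capitals mark the 2 cysteine codons, the first being codon 52 in Ppbp and codon 44 in Pf4.
Ppbp: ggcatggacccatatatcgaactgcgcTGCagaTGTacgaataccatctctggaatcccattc
Pf4: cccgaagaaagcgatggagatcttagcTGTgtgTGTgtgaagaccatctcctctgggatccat
The 2 stretches were identical at 27 of 63 bases, and the longest run shared by the transcripts was 11 bases, far shorter than the 125-base reads. No 125-base window of Ppbp or Pf4 occurred in a transcript of another gene. Of the other members only Gp1bb shared such windows: 89.23% of its windows, on chromosome 16, also occurred in transcripts of Sept5 and Gm49601, so mouse GP1BB reads are uncertain.

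In macaque, the 2 chemokines were far higher in calvaria. PPBP had 1283, 1253 and 1622 reads in the calvaria libraries G1, G3 and T1 and 73, 51 and 183 reads in the tibia libraries G2, G4 and T2. In normalized CPM (a count scaled to a common library size) PPBP stood at 169 ± 23.5 in calvaria against 10.5 ± 6.36 in tibia (SD, n = 3 each), a ratio of 16.1 and a log2 fold change of 4.00 (SE 0.268). Every calvaria library lay above every tibia library, and within tibia T2 was the highest. PF4 had 527, 593 and 1047 reads in calvaria and 16, 28 and 74 reads in tibia, or 88.3 ± 33.9 against 4.04 ± 2.81 CPM (SD, n = 3 each), a ratio of 21.8 and a log2 fold change of 4.43 (SE 0.322). The sites did not overlap for PF4 either, and T1 and T2 were again the highest library of their site. PF4V1, a near copy of PF4, had 42, 42 and 110 reads in calvaria and 1, 9 and 17 reads in tibia, and reads of the pair may have been split between them. With the 4 G libraries alone, an alternative added after the data were seen, the log2 fold changes were 4.51 for PPBP and 4.81 for PF4, and the T libraries, 1 per site, showed the same direction.

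In mouse, the chemokines were abundant at both sites and their difference was small. PPBP was at 427 CPM in M4 and 683 CPM in M8 against 559 and 416 CPM in the tibias M5 and M7. The sites overlapped, with M8 highest and M7 lowest, and the log2 fold change of 0.19 (SE 0.288) did not pass the test (adjusted p = 0.874, edgeR quasi-likelihood). Without M8 it turned to -0.20 (SE 0.158), as M4 lay between the tibias. PF4 was at 416 and 501 CPM in calvaria and at 291 and 219 CPM in tibia. Both calvaria libraries lay above both tibias, and the log2 fold change of 0.85 (SE 0.265) had an edgeR p of 0.00673 but an adjusted p of 0.245, above the threshold of 0.2. Without M8 it was 0.70 (SE 0.158).

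In rat, PF4 and PPBP were higher in calvaria but differed greatly in level. PF4 had 12614 reads in calvaria and 4048 in tibia, a ratio of 2.67 in CPM with a counting interval (95%, counting error only) of 2.58 to 2.77. PPBP had 89 reads in calvaria and 26 in tibia, a ratio of 2.94 with an interval of 1.88 to 4.74. The rat PPBP row covers 352 exonic bases against 1080 in mouse and 1007 in macaque. Another macaque row under PPBP, of 396 bases, had 0 reads. For each PF4 read there were 0.00706 and 0.00642 PPBP reads in the rat libraries, against 1.03 and 1.36 in mouse calvaria, 1.92 and 1.90 in mouse tibia, 1.55 to 2.43 in macaque calvaria and 1.82 to 4.56 in macaque tibia. Within a library this ratio is free of scaling. It was lower in both mouse calvaria libraries than in either tibia, while in macaque and rat the sites were close to each other or overlapped.

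**Figure D1:**
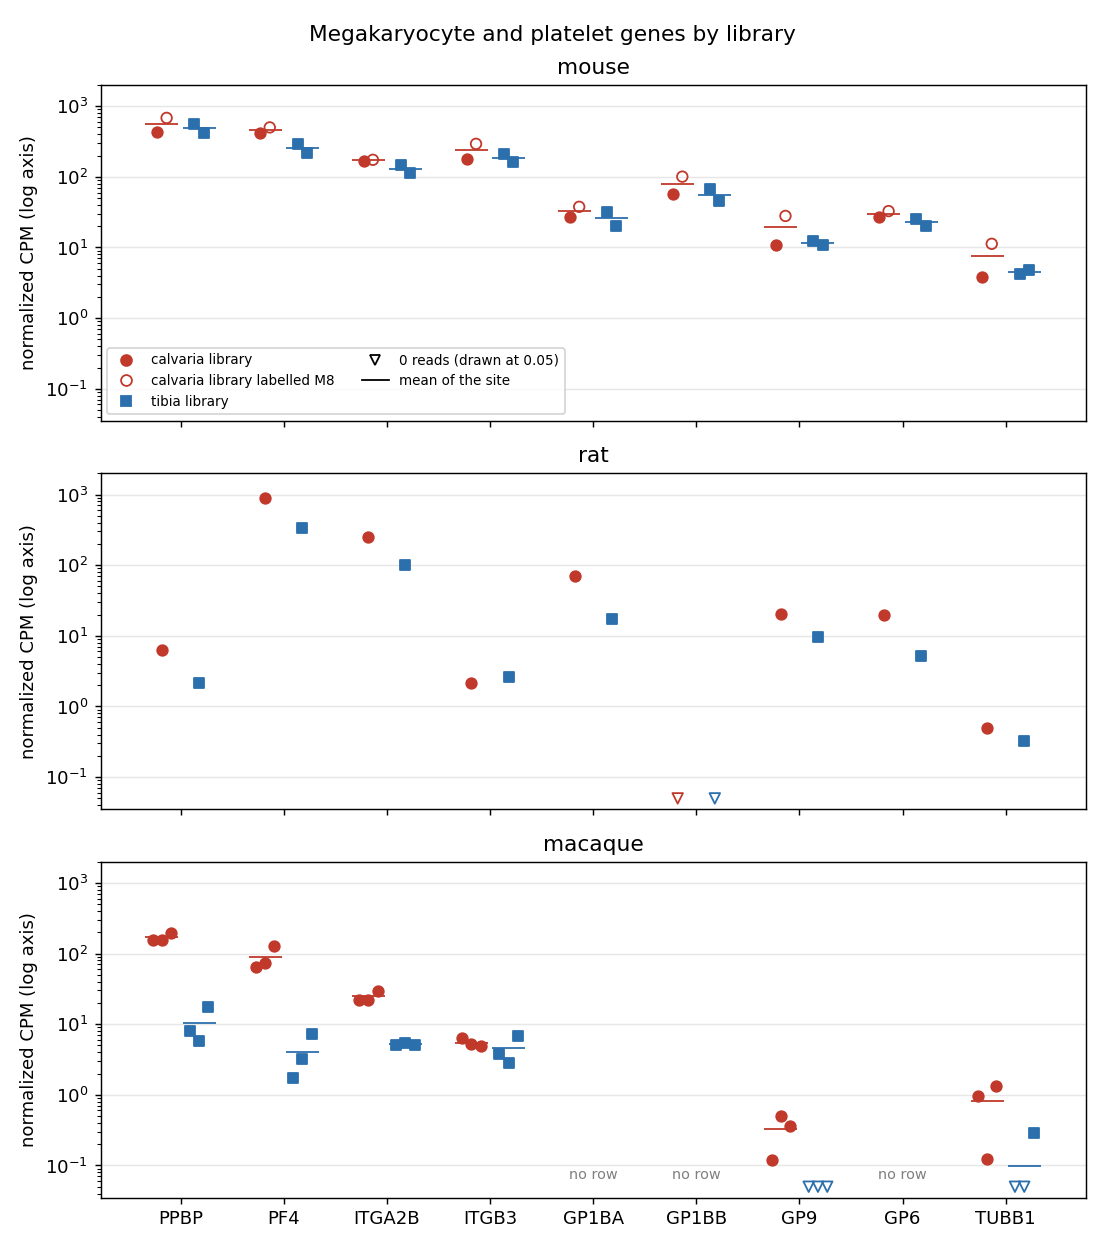
Normalized CPM of each gene (log axis) in every library of mouse, rat and macaque, with calvaria as circles, the calvaria library labelled M8 as open circles, tibia as squares, site means as lines where a site has replicates, and 0 reads as triangles at 0.05. In macaque PPBP, PF4 and ITGA2B separate the sites without overlap, while in mouse M8 is the highest library for every gene.

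The integrin subunits ITGA2B and ITGB3, which form 1 receptor on platelets, differed from each other in macaque. In macaque ITGA2B had 184, 174 and 247 reads in calvaria and 46, 48 and 52 in tibia, or 24.6 ± 4.58 against 5.19 ± 0.254 CPM (SD, n = 3 each), a ratio of 4.75 and a log2 fold change of 2.25 (SE 0.292). The macaque sites did not overlap for ITGA2B. ITGB3, which osteoclasts and other cells also express with another α subunit, had 52, 42 and 40 reads in calvaria and 35, 25 and 71 in tibia. There the sites overlapped, T2 held the most reads and the log2 fold change was 0.27 (SE 0.420). The number of ITGA2B reads per ITGB3 read was 3.54, 4.14 and 6.18 in macaque calvaria and 1.31, 1.92 and 0.732 in tibia.

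In mouse ITGA2B was at 167 and 174 CPM in calvaria and at 146 and 114 CPM in tibia, without overlap, and the log2 fold change of 0.39 (SE 0.259) had an adjusted p of 0.830. Without M8 it was 0.36 (SE 0.163). ITGB3 was at 181 and 293 CPM in calvaria and at 210 and 164 CPM in tibia, where M4 lay between the tibias. Its log2 fold change was 0.34 (SE 0.290, adjusted p = 0.874, edgeR), and without M8 it turned to -0.054 (SE 0.166). In rat ITGA2B had 3517 reads in calvaria and 1246 in tibia, a ratio of 2.42 (counting interval 2.27 to 2.59). Rat ITGB3 had only 31 and 32 reads, over a row of 2162 exonic bases against 5981 in mouse. Its log2 ratio was -0.27 by library size and 0.023 with TMM factors, so no direction was read from it, and its counting interval of 0.491 to 1.41 includes 1.

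The GPIb-IX-V complex, the receptor for von Willebrand factor, was measured in full in mouse. GP1BA, its ligand-binding chain, was at 27.4 and 37.6 CPM in calvaria and 31.4 and 20.2 CPM in tibia, a log2 fold change of 0.33 (SE 0.303, adjusted p = 0.874, edgeR). GP1BB, linked to it and uncertain in mouse, was at 56.6 and 101 CPM in calvaria and 67.1 and 45.1 CPM in tibia (0.49, SE 0.316, adjusted p = 0.825, edgeR). GP9 was at 10.7 and 27.97 CPM in calvaria and 12.2 and 10.8 CPM in tibia (0.74, SE 0.401, adjusted p = 0.719, edgeR). For all 3 the sites overlapped and M8 was the highest library. Without M8 the log2 fold changes were 0.077 for GP1BA, 0.0047 for GP1BB and -0.11 for GP9. GP5, the remaining subunit and not one of the 9, had a mouse log2 fold change of 0.30 (SE 0.279, adjusted p = 0.874, edgeR) with M8. It was -0.049 (SE 0.169) without M8.

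In rat, GP1BA had 990 reads in calvaria and 212 in tibia, the largest rat difference among the 9 genes, a log2 ratio of 1.997 that lay just under the threshold of 2 and a CPM ratio of 4.01 (counting interval 3.45 to 4.67). GP9 had 293 and 119 reads, a ratio of 2.11 (1.70 to 2.64). GP1BB was listed at 0 in both rat libraries, as were GP5 and GATA1. So was COL1A2, a collagen chain that all bone makes, so that a 0 in the rat table does not show that a gene was silent. In macaque, GP9 had 1, 4 and 3 reads in calvaria and 0 in each tibia library. Against a floor of 3 reads over the 3 tibia libraries this was 3.07-fold higher in calvaria, which is not a lower bound. The exact 95% counting interval of the ratio reaches down to 1.96, but it rests on summed reads and leaves out the spread between animals.

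GP6, the collagen receptor of platelets, was at 27.1 and 32.8 CPM in mouse calvaria and at 25.6 and 20.4 CPM in tibia. The sites did not overlap, but the log2 fold change of 0.38 (SE 0.280, adjusted p = 0.860, edgeR) did not pass the test. Without M8 it was 0.23 (SE 0.1998). In rat GP6 had 277 reads in calvaria and 64 in tibia, a CPM ratio of 3.71 (counting interval 2.82 to 4.95). TUBB1 was the lowest member per length in mouse, at 3.84 and 11.3 CPM in calvaria and 4.24 and 4.86 CPM in tibia. M8 stood above the rest and M4 below both tibias. The log2 fold change was 0.73 (SE 0.496, adjusted p = 0.841, edgeR) with M8 and -0.25 (SE 0.397) without it. Rat TUBB1 had 7 and 4 reads, a ratio of 1.502 whose interval of 0.382 to 6.996 includes 1. Macaque TUBB1 had 8, 1 and 11 reads in calvaria and 0, 0 and 3 in tibia, so the sites overlapped, with a counting ratio of 7.67 (interval 2.27 to 40.3).

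Compared per kilobase of exon within a species, the chemokines led in mouse and macaque. In mouse calvaria PF4 was at 779 ± 102 and PPBP at 514 ± 168 CPM per kb, and in tibia PPBP was at 452 ± 93.8 and PF4 at 434 ± 86.3 CPM per kb (SD, n = 2 each), so that the order of the 2 did not differ beyond the spread in tibia. ITGA2B (46.1 ± 1.37), ITGB3 (39.6 ± 13.3) and GP1BB (37.7 ± 14.9 CPM per kb) followed in calvaria within their spread of each other, then GP1BA, GP9, GP6 and TUBB1 at 7.72, 7.47, 4.94 and 3.77 CPM per kb. The order of those 7 was the same in tibia. M4 alone gave 707 CPM per kb for PF4 and 395 for PPBP, and of the other 7 only GP9 (4.13 CPM per kb) and GP6 (4.48 CPM per kb) changed places. In macaque calvaria PF4 was at 202 ± 77.3 and PPBP at 168 ± 23.3 CPM per kb, followed by ITGA2B at 7.20 ± 1.34 and ITGB3 at 1.22 ± 0.163 CPM per kb (SD, n = 3). In macaque tibia PPBP was at 10.4 ± 6.32, PF4 at 9.23 ± 6.43, ITGA2B at 1.51 ± 0.0743 and ITGB3 at 1.01 ± 0.470 CPM per kb. In rat PF4 led at 2783 and 1041 CPM per kb in calvaria and tibia, with ITGA2B, GP9 and GP1BA next and PPBP below them at 17.7 and 6.04 CPM per kb.

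**Figure D2:**
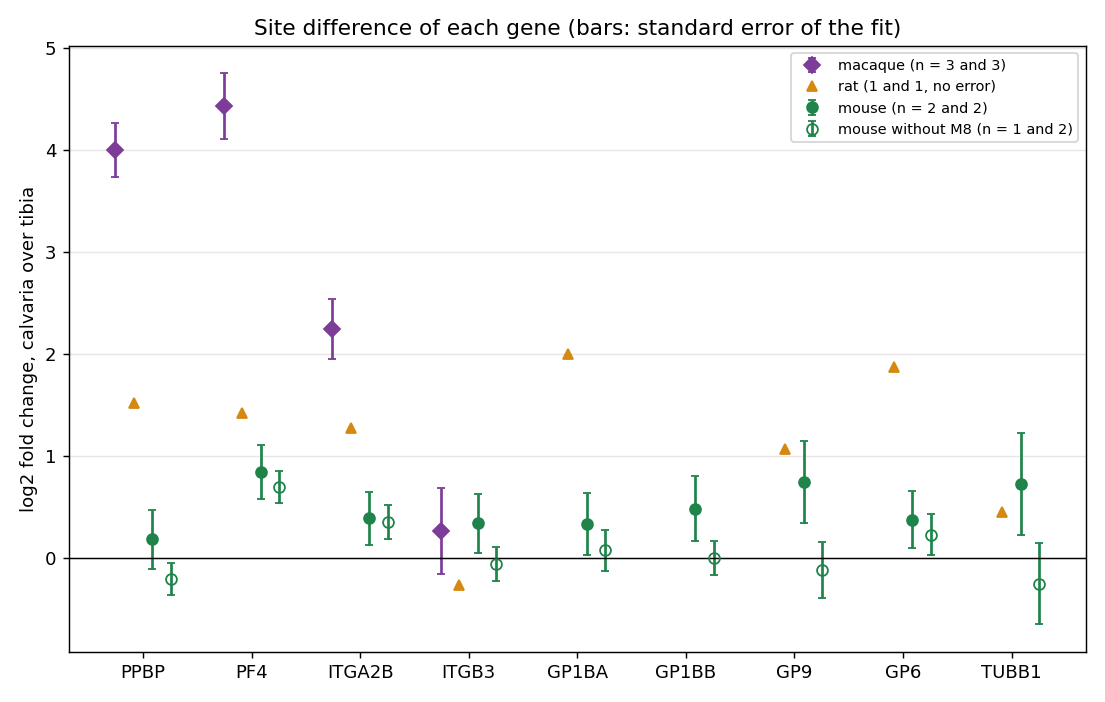
Log2 fold change of each gene, calvaria over tibia, in macaque, rat, mouse and mouse without M8, with bars for the standard error of the edgeR fit. Rat has no error, and macaque GP9 and TUBB1, with 3 or fewer tibia reads in all, and genes without a row or a read are not drawn. The macaque values of PPBP and PF4 exceed 3.9, and mouse values lie at or below 0.85.

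With all 4 mouse libraries no member was called. With calls set at an adjusted p under 0.2 with a fold over 1.1, edgeR's quasi-likelihood test called 0 of 9 members higher in calvaria, where 0.712% of all 22339 tested symbols were called in that direction and 2.28% in either. The edgeR exact test, the likelihood ratio test and DESeq2 also called 0, and 1 of 9 (PF4) had an unadjusted p under 0.05. All 9 log2 fold changes were above 0, against 53.7% of all tested symbols, with a median of 0.39 against 0.052 over all symbols. In 3 of 9 (PF4, ITGA2B and GP6) both calvaria libraries exceeded both tibias, as in 17.3% of all symbols. Without M8, 5 of 9 remained above 0. With M8 as the only calvaria library all 9 were above 0. M8 was the highest mouse library for 9 of 9 genes and M7 the lowest for 7 of 9, and the summed level of the 9 was 1316 CPM in M4, 1861 in M8, 1347 in M5 and 1014 in M7. Thus the summed level of M4 lay between those of the tibias.

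In macaque 3 of the 6 genes with a row (PPBP, PF4 and ITGA2B) were called higher in calvaria, where 10.3% of all 18894 tested symbols were called in that direction and 19.7% in either. In 4 of 6 (these and GP9) every calvaria library exceeded every tibia library, as in 12.8% of all symbols. The macaque contrast chose the genes, and nothing is read from these counts. Their median log2 fold change was 3.41 as fitted and 2.59 with GP9 set against the floor of 3 reads and TUBB1 at its counting ratio, against 0.026 over all symbols. The summed level of the 6 was 248, 259 and 360 CPM in calvaria and 18.6, 17.4 and 37.2 CPM in tibia. In rat 0 of 8 genes with a read passed a log2 ratio of 2, which 1.55% of all 19234 symbols passed upwards, and 6 of 8 passed 1, which 6.8% passed. The rat median was 1.35 against -0.29 over all symbols, and 7 of 8 were above 0 against 34.2% of all. With TMM factors, which moved the median of all rat genes by 0.29 to -0.0047, 2 of 8 (GP1BA and GP6) passed 2, which 2.6% of all symbols passed upwards. All 8 were then above 0, against 49.8% of all symbols, with ITGB3 at 0.023.

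A wider list of 50 other megakaryocyte and platelet genes, without any of the 9, is described next. In mouse 50 of 50 were tested, with a median log2 fold change of 0.25, 34 above 0 and 2 called. Of all mouse symbols 53.7% were above 0 and 2.28% were called in either direction. MMRN1 (multimerin 1, an α-granule protein) was called higher in calvaria on the 737 reads of M8 alone and had no read in the other 3 libraries. CD36, a scavenger receptor also found on endothelium and fat cells, fell by 0.99 on the log2 scale in calvaria (SE 0.253, adjusted p = 0.104, edgeR). It had 1823 and 1557 reads in calvaria and 3947 and 3590 in tibia, without overlap, and fell by 1.01 without M8. Without M8, 49 genes of the list were tested. No call of the list is read there, since 1 calvaria library gives no spread of its own. That fit called 8.91% of all symbols higher in calvaria and 17.6% in either direction, against 0.712% and 2.28% with M8. The median of the list without M8 was -0.17, against -0.036 over all symbols, and 15 of 49 were above 0. The transcription factors NFE2 (0.78, SE 0.288, adjusted p = 0.390), GATA1 (0.84, SE 0.412, adjusted p = 0.665), GFI1B (0.72, SE 0.495, adjusted p = 0.844) and FLI1 (-0.38, SE 0.303, adjusted p = 0.870) did not pass the edgeR test with M8. Without M8, FLI1 was at -0.84 (SE 0.195) and NFE2 at 0.36 (SE 0.164). GATA1 (-0.28, SE 0.193) and GFI1B (-0.34, SE 0.382) turned direction without M8. VWF turned from 0.42 (SE 0.331) with M8 to -0.20 (SE 0.1996) without it, and was not called with M8. Nor was THPO, the hormone of megakaryocyte growth, which had 2 to 12 reads per library.

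In macaque 36 of the 50 had a row and 34 had a read, with 11 called higher in calvaria, 3 called lower and a median log2 fold change of 0.40, values that belong to the contrast that chose PPBP. Of all tested macaque symbols 10.3% were called higher in calvaria and 19.7% in either direction. RGS18, a regulator of G-protein signalling in platelets, was higher in calvaria by 1.75 (SE 0.220), with 713, 936 and 792 reads against 191, 237 and 423 in tibia. PLEK (pleckstrin) was higher by 1.64 (SE 0.227) and BIN2 by 1.46 (SE 0.207), and both are also expressed by leukocytes. MMRN1 had 94, 37 and 76 reads in calvaria and 18, 5 and 14 in tibia (2.67, SE 0.485), and GFI1B had 148, 73 and 196 reads against 18, 4 and 46 (2.85, SE 0.449). Called lower in calvaria were PTGS1, a prostaglandin synthase (-0.89, SE 0.232), the ADP receptor P2RY1 (-1.30, SE 0.475) and VWF, which endothelium also makes (-0.58, SE 0.221). FLI1 did not differ beyond its error (0.091, SE 0.1995). No macaque row under GATA1, NFE2, GP5 or THPO was used here. In rat 45 of 50 had a read, the median was 0.52 and 1 gene, the thrombin receptor F2RL3 (93 and 18 reads, log2 ratio 2.09), passed 2. Rat MMRN1 (1035 and 323 reads) had a log2 ratio of 1.46.

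**Figure D3:**
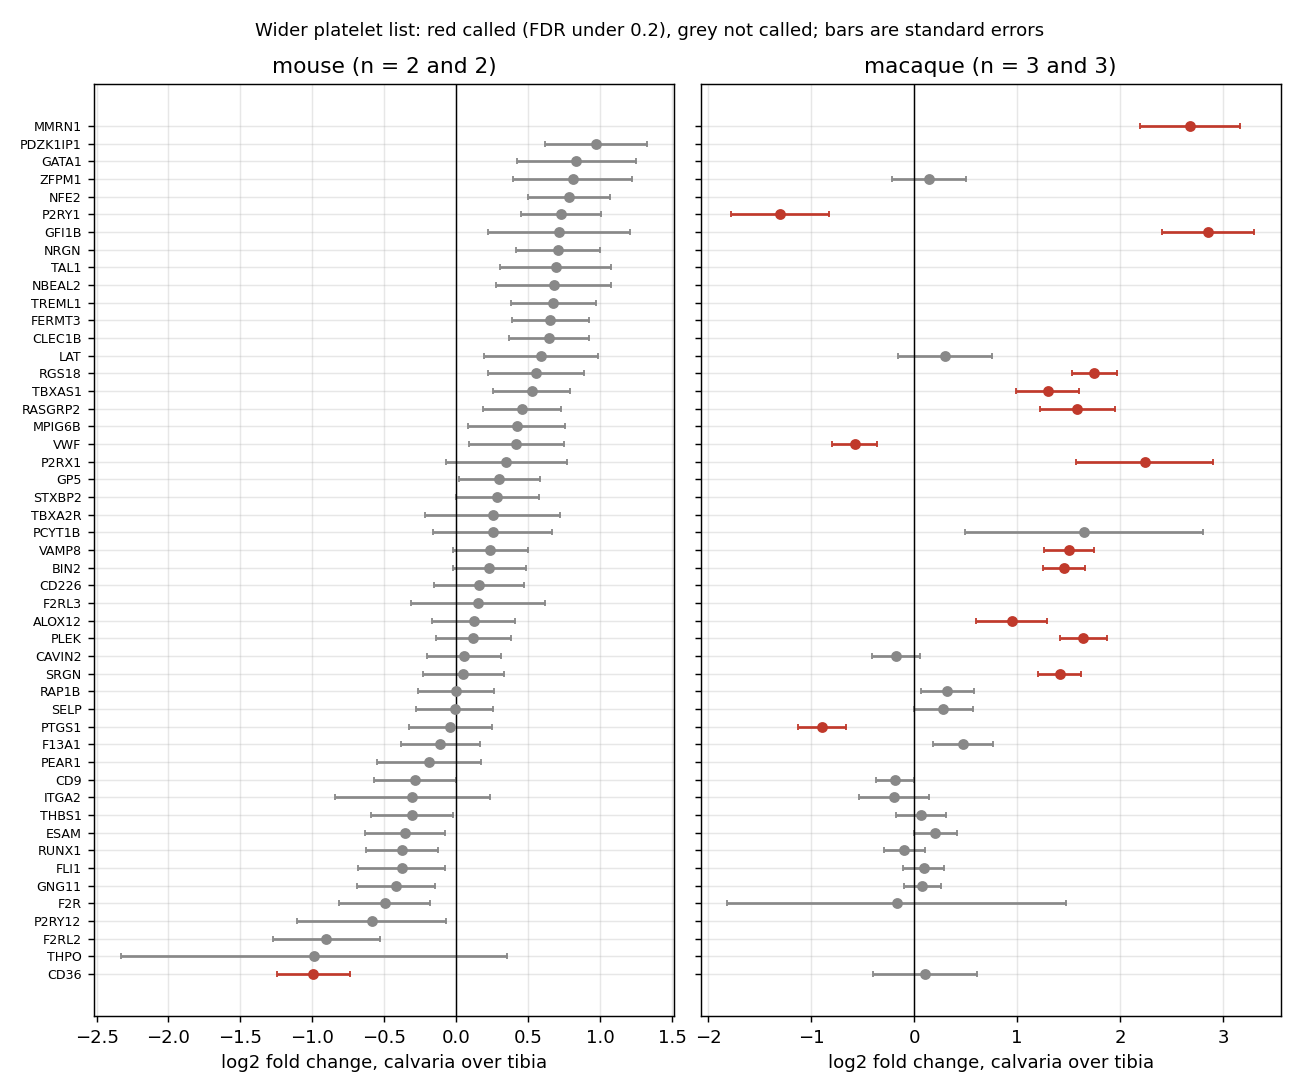
Log2 fold change with its standard error for the wider list of 50 platelet genes in mouse and macaque, ordered by the mouse value, red where called. Genes without a row, and genes with at most 3 reads in every library of a site (mouse MMRN1 among them), are not drawn, nor is every gene of the list. In mouse only CD36 is red, and in macaque most red points lie above 0.

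Markers of other marrow cells moved with the members in macaque, where 10.3% of all tested symbols were called higher in calvaria. Of the erythroid list (7 with a row, among them ALAS2) 6 were called higher in calvaria and 7 of 7 were above 0, with a median log2 fold change of 2.24 and a summed level of 26370 to 38112 CPM in calvaria against 7036 to 10150 CPM in tibia. Of the neutrophil list 6 of 7 (MPO among them) were called higher, with a median of 1.87 and sums of 35626 to 59222 CPM against 7042 to 13891 CPM. Of the B cell list 3 of 4 were called higher, with a median of 1.63. Of the osteoclast list and of the monocyte and macrophage list 3 of 7 each were called higher, with medians of 0.78 and 0.82. The summed level of the platelet members, as a share of the erythroid sum, was 0.940%, 0.735% and 0.944% in calvaria and 0.230%, 0.247% and 0.366% in tibia. As a share of the neutrophil sum it was 0.696%, 0.484% and 0.608% against 0.264%, 0.245% and 0.268%. PPBP and PF4 carry most of this sum, and PPBP was chosen on this contrast. The summed level of the wider platelet list went the other way, at 9.68% to 12.6% of the erythroid sum in calvaria and 25.7% to 31.9% in tibia. It was 6.23% to 9.35% of the neutrophil sum in calvaria and 18.8% to 31.9% in tibia. SRGN (1448 and 545 CPM on average in calvaria and tibia) and GNG11 (740 and 702 CPM) carry most of that wider sum. The part of marrow content in the macaque difference was not tested.

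In mouse the neutrophil list (12 of 12 above 0, 2 called higher, median 0.71) had sums of 91868 CPM in M4 and 124465 CPM in M8 against 56993 and 64833 CPM in tibia. Of all mouse symbols 0.712% were called higher in calvaria. The erythroid list (8 of 8 above 0, median 0.43) had 1182 CPM in M4, below both tibias at 1589 and 1724 CPM, and 3329 CPM in M8. Without M8 the neutrophil median was -0.073, with 5 of 12 above 0. The erythroid median was then -0.37, with 0 of 8 above 0. The platelet members in M4 were at 111% of the erythroid sum, against 55.9% in M8 and 84.8% and 58.8% in the tibias M5 and M7. The mouse erythroid sum holds 8 of the 12 genes, with no row used under HBB, HBA1, AHSP or EPB42. Rat HBA1 (47891 CPM in calvaria) and macaque HBB (30579 CPM on average in calvaria) carry most of their erythroid sums. Shares of the erythroid sum are therefore not comparable between species. The platelet members were at 1.43% of the neutrophil sum in M4 and 1.495% in M8, below the tibias at 2.36% and 1.56%. In rat the erythroid median log2 ratio was 0.84 and the neutrophil median 0.61, below the 1.35 of the platelet members. The platelet members of the rat stood at 1.85% of the erythroid sum in calvaria and 1.24% in tibia. They were at 1.53% and 1.07% of the neutrophil sum. The summed level of the wider platelet list in rat went the other way, at 9.86% of the erythroid sum in calvaria and 12.71% in tibia. It was 8.19% of the neutrophil sum in calvaria and 10.97% in tibia. The median log2 ratio of that wider list, 0.52, lay below the erythroid and neutrophil medians.

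**Figure D4:**
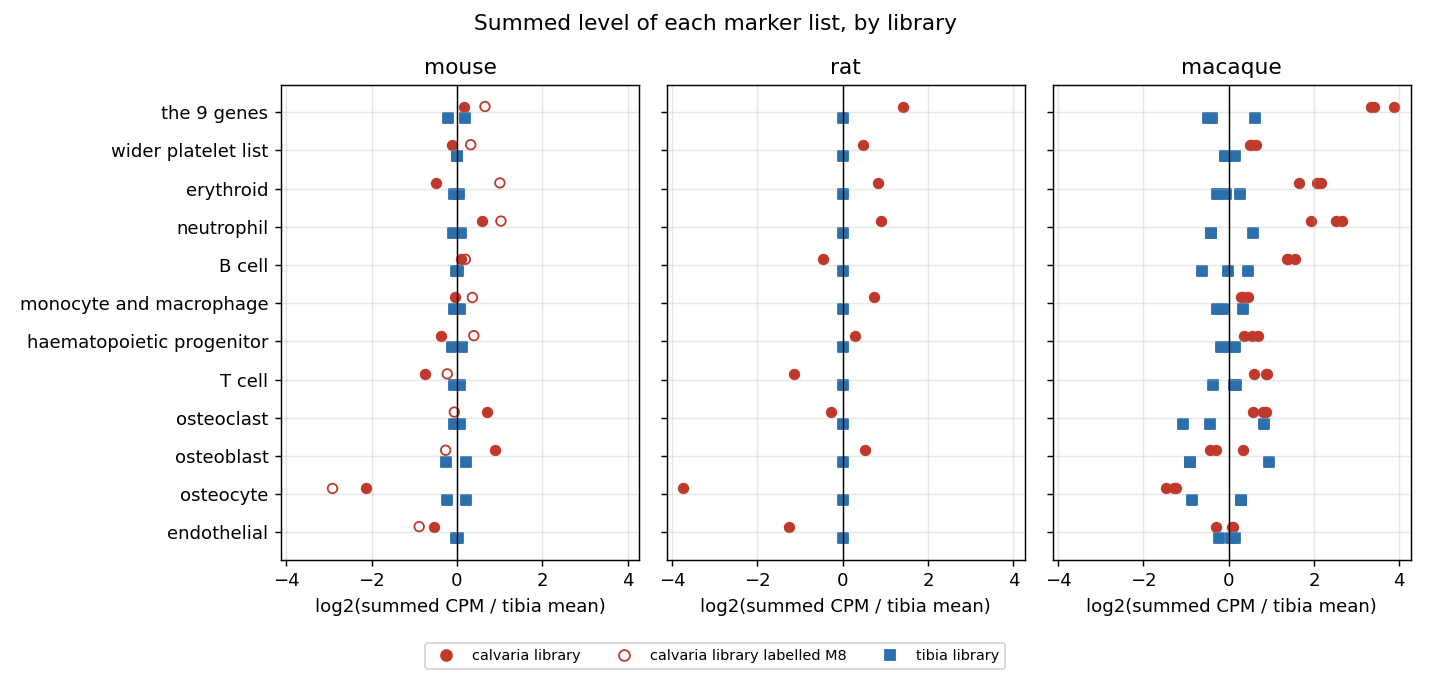
Summed level of the 9 genes (6 with a row in macaque) and of 11 marker lists in every library, as log2 of the summed CPM over the mean of the tibia libraries of the same species, with calvaria as circles, M8 as open circles and tibia as squares. The erythroid, neutrophil and B cell sums of macaque calvaria lie above those of every macaque tibia library, as do those of the 9 genes.

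Patterns most like those of the members were sought among 5486 symbols read in all 3 species with a mean CPM over 1 in each. Likeness was Pearson's r of log2(CPM + 1) over the 12 libraries after taking out each species' mean. This is a description over libraries that share site, species and depth, and the macaque libraries weigh most in it. For PPBP the 5 most alike were KIF23 (r = 0.993), CYBB (0.985), FYB (0.984), PRKCB (0.984) and PPIF (0.980). For PF4 they were KIFC1 (0.993), FYB (0.988), TUBA4A (0.985), PRKCB (0.980) and PPBP (0.978), and for ITGA2B they were BIN2 (0.990), NDC80 (0.965), PF4 (0.965), LCP1 (0.964) and PLEK (0.964). PF4 ranked 10th for PPBP and ITGA2B ranked 62nd, while ITGB3 had an r of 0.493 and ranked 1257th.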

How the data were processed

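Bone RNA of 12 libraries was sequenced as single reads of 125 bases. The authors mapped reads (HISAT2 by the paper, BWA 0.7.10-r789 by the submitters' processing notes) to mm10, rn6 and the MacaM assembly and counted them with HTSeq on merged exons. The deposited tables hold, per gene and library, the raw read count and a normalized signal (CPM) of the authors, which was not used. Columns of other samples numbered 0. Rows naming no gene (0.00261% to 0.0663% of reads) were left out, gene symbols were upper-cased, and counts were summed where rows shared a symbol.

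Mouse and macaque counts with a read in some library were fitted separately with edgeR 4.0.16 (R 4.3.3). The steps were TMM factors, the quasi-likelihood test and Benjamini-Hochberg adjustment over all tested symbols. Calls were set at an adjusted p under 0.2 with a fold over 1.1, as the study words its thresholds. The study removed genes without a read in some sample, which were kept here, so counts of calls are not comparable with its own. CPM use the TMM library sizes, except in rat. In rat, log2 CPM ratios used 1 added read and a threshold of 2, without a test. Counting intervals are exact (95%), use the reads summed over a site and hold counting error only. Tools were DESeq2 1.42.0 (alternative), Python 3.11.15, pandas 2.3.3, numpy 2.4.6, scipy 1.17.1 and matplotlib 3.10.9. Steps were tested on simulated data. Positions, transcripts and the check for shared 125-base windows come from GENCODE vM21.

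The members, lists and tests were chosen with earlier results of these data known. Named genes were the 9 members, of the wider list in each fitted species the 3 called genes of smallest p per direction with GP5, VWF, THPO, GATA1, NFE2, FLI1 and GFI1B, up to 3 markers per cell type list in list order, and the 5 symbols most like PPBP, PF4 and ITGA2B. F2RL3, PF4V1, COL1A2, Sept5, the macaque and rat values of MMRN1 and the genes that set M8 apart were named after their values were seen. So were SRGN, GNG11, HBA1, HBB and MEPE, for their share of a summed level. A gene that meets the rule is not reported here.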

Additional observations from a re-analysis of the deposited data

How the results depend on the processing

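Over the alternatives that kept every library, the log2 fold changes of the mouse and macaque members kept their direction, and no mouse member became called. Leaving out 1 mouse library gave log2 fold changes of -0.20 (without M8) to 0.46 (without M4) for PPBP, with -0.012 without M7, of -0.054 to 0.62 for ITGB3, of -0.11 to 1.25 for GP9 and of -0.25 to 1.28 for TUBB1, each lowest without M8 and highest without M4. The genes called in mouse then ranged from 220 to 7470. The members called ranged from 0 to 9 and the wider list from 1 to 37, all 3 counts highest without M4. Without M4, 16.2% of all 21689 tested symbols were called higher in calvaria, with M8 as the only calvaria library. Each of these mouse fits leaves 1 library at a site, so their calls show instability only and are not read as results.

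Against 510 genes called in mouse, other settings called 29 (edgeR's filterByExpr), 14 (a read in every library), 20 (symbols read in all 3 species), 208 (adjusted p under 0.05) and 295 (replicate block for pairs assumed from label numbers, with 0 members called). The 2 wider-list genes called in mouse became 0 under the first 4 of these and 1 under the exact test, the log2 fold threshold of 1.1 and the replicate block. In macaque the 3724 genes called became 2136 with symbols read in all 3 species, 1978 at the stricter rate and 1550 at the fold threshold, and leaving out 1 library gave 2301 (without G3) to 4998 (without T2). Members called in macaque rose from 3 to 5 under the likelihood ratio test, with GP9 and TUBB1. Library size alone moved the median of all macaque genes by -0.20 and the share of calls higher in calvaria from 52.2% to 30.7%. Rat genes past the ratio numbered 1864, 690 with 5 reads added, 6072 at a threshold of 1 and 538 among shared symbols. TMM factors in rat turned ITGB3 to 0.023 and raised the share higher in calvaria from 16.0% to 31.5%. The pairs are not named by the labels, so the block shows a shared number only. In mouse it set M7 with M8, and XIST had 12083 reads in M7 and 2 in M8, while DDX3Y had 0 and 1049. M7 and M8 therefore do not come from the same mice, and the mouse block cannot serve as a check on pairing. The causes were not tested. Few reads limit the precision of GP9 and TUBB1 in macaque and of PPBP, ITGB3 and TUBB1 in rat, and the cause of the low rat counts was not tested.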
